A study of Homo sapiens with 4 samples.

Results

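MicroRNAs (miRNAs) are numbered in the order in which they were described, so the known miRNAs with a number of 1000 and up are the late entries of the catalogue. All 203 distinct mature names of this kind in the count table were taken, chosen by the number in the name alone and by no measured value. They stand among 570 known miRNAs and 843 entries in all, of which another 367 are known miRNAs with lower numbers (the let-7 family included, called other known miRNAs here) and 273 are miRNAs predicted from the reads. By number, 45 names lie below 2000, 4 more below 3000, 53 more below 4000, 37 more below 5000 and 64 at 5000 and up. Of the names, 64 end in 5p, 65 in 3p and 74 carry no arm suffix.

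The small RNA came from an RNA pull-down in HGC27 and AGS cells, both established gastric cancer cell lines. Cells of both lines had been made to overexpress the 3′-UTR of FN1 (fibronectin 1) stably from a lentivirus, so all 4 libraries share that transgene. HGC27 cells were grown in RPMI-1640 and AGS cells in DMEM/F12, both with FBS, and the lysate of each line was incubated with a biotinylated RNA probe to the FN1 3′-UTR, named positive or negative, on streptavidin beads. The published methods describe the RNA put on the beads as antisense, but do not give the strand of the positive and the negative probe separately. Each combination of line and probe is 1 library, so a difference between 2 libraries has no replicate check, and the intervals given here cover counting error only.

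A miRNA is cut from a hairpin in a longer transcript by Drosha and Dicer and is loaded into an Argonaute protein, where bases 2 to 8, the seed, pair with messenger RNA targets. A mirtron skips the Drosha step, since a spliced and debranched short intron itself folds into the hairpin, and a tailed mirtron shares only 1 end with its intron. Older miRNAs tend to be conserved families with high levels, whereas late numbers were mostly found by deep sequencing and many are known in primates only. Fragments of other small RNAs can carry a miRNA name when their sequence is the same.

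The sequences that the results turn on are shown with the seed in capitals, 5′ to 3′. Of the 203 names, 187 matched the RefSeq table (GRCh38.p14) with the same mature sequence, and 326 of the 367 other known miRNAs did. miR-1180-3p, by counts the foremost of the group, lies at chr17:19344513-19344534 (GRCh38, minus strand) in an intron of B9D1. miR-1287-5p (chr10:98395271-98395292, minus strand) lies in an exon of PYROXD2, and miR-1343-3p (chr11:34941888-34941909, plus strand) lies in an intron of PDHX. miR-1255a (chr4:101330365-101330387, minus strand) lies in an intron of PPP3CA. These had more counts with the positive probe in both lines:
miR-1180-3p: uUUCCGGCucgcgugggugugu
miR-1287-5p: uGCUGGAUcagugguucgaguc
miR-1343-3p: cUCCUGGGgcccgcacucucgc
miR-1255a: aGGAUGAGcaaagaaaguagauu
miR-3177-3p: uGCACGGCacuggggacacgu
miR-3928-3p: gGAGGAACcuuggagcuucggc

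The next sequences are shown because they match other small RNAs, differ between the lines, or end at an intron's 3′ end. miR-1246 (chr2:176601024-176601042, minus strand, in no annotated gene on that strand) is identical over its whole length to a stretch of U2 spliceosomal RNA, and miR-12136 (chr1:632668-632685, minus strand, in an intron of AL669831.3) to a stretch of the mitochondrial serine tRNA MT-TS1. miR-1299 (chr9:40929010-40929031, minus strand) and miR-6720-3p (chr6:1390324-1390345, minus strand) lie in no annotated gene on their strand. miR-1226-3p (chr3:47849608-47849629, plus strand) fills the 3′ end of an intron of DHX30.
miR-1246: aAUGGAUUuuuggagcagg
miR-12136: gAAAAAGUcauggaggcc
miR-1299: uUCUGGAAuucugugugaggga
miR-6720-3p: cGCGCCUGcaggaacugguaga
miR-1226-3p: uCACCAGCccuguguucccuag

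In depth, the libraries summed to between 1296853 and 2955078 counts, and no count below 2 was listed. A blank was read as not listed, and 3 counts, the limit that a count of 0 allows, correspond to between 0.000102% and 0.000231% of a library. The AGS libraries were filled to a large degree by 1 entry, miR-372-3p, with 80.8% of the counts with the negative probe and 37.5% with the positive probe, against 0.178% and 0.3% in HGC27. Of the marker lists checked, the 5 epithelial miR-200 family members summed to 1895 and 988 counts in HGC27 (negative and positive probe) and to 59552 and 3203 in AGS. Of the 3 gut markers, miR-192-5p had 349 and 326 counts in HGC27 and 832 and 959 in AGS. miR-194-5p had 65 and 16 counts in HGC27 and 253 and 9 in AGS, and miR-215-5p was not listed in any library. The 4 blood markers summed to at most 2 counts.

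The miRNAs numbered 1000 and up were many names with few counts. In HGC27 they held 4445 counts with the negative probe, 0.306% of the library (Wilson 95% interval 0.2971 to 0.3151), and 10615 counts with the positive probe, 0.8185% (0.8032 to 0.8342). In AGS they held 555 counts with the negative probe, 0.01878% (0.01728 to 0.02041), and 3281 counts with the positive probe, 0.2148% (0.2076 to 0.2223). The share was thus higher with the positive probe in both lines and higher in HGC27 with both probes. When the counts of miR-372-3p were not part of the total, the AGS shares were 0.09793% and 0.3436%.

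Most of the difference between probes was 1 miRNA. miR-1180-3p had 1556 and 7575 counts in HGC27 (negative and positive probe) and 55 and 1906 in AGS. It made up 35.01%, 71.36%, 9.91% and 58.09% of the group's counts in that order, and ranked 53, 21, 106 and 21 among all entries of its library. Without it, the group's share was 0.199% and 0.234% in HGC27 and 0.0169% and 0.09% in AGS, still higher with the positive probe in both lines.

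The number of names listed followed the lines more than the probes. HGC27 listed 124 of the 203 with the negative probe and 135 with the positive probe, and AGS listed 48 and 64. The same held over all 843 entries, with 574 and 609 listed in HGC27 and 342 and 361 in AGS. Counts were low, since 122 of the 203 (60.1%) had fewer than 10 counts summed over the 4 libraries, against 24.0% of the other known miRNAs. Only 21 (10.3%) reached 100 counts, against 46.0% of the other known miRNAs. The median sum was 6 counts, against 68. Of the names, 101 were listed in just 1 library and 26 (12.8%) appeared in all 4, against 48.5% of the other known miRNAs. In HGC27 alone 119 names were listed, 30 of them with at least 10 counts, and in AGS alone 25, 4 of them with at least 10. Over all 843 entries, 384 were listed in HGC27 alone, 108 of them with at least 10 counts. In AGS alone 88 of all entries were listed, 19 of them with at least 10.

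**Figure D1:**
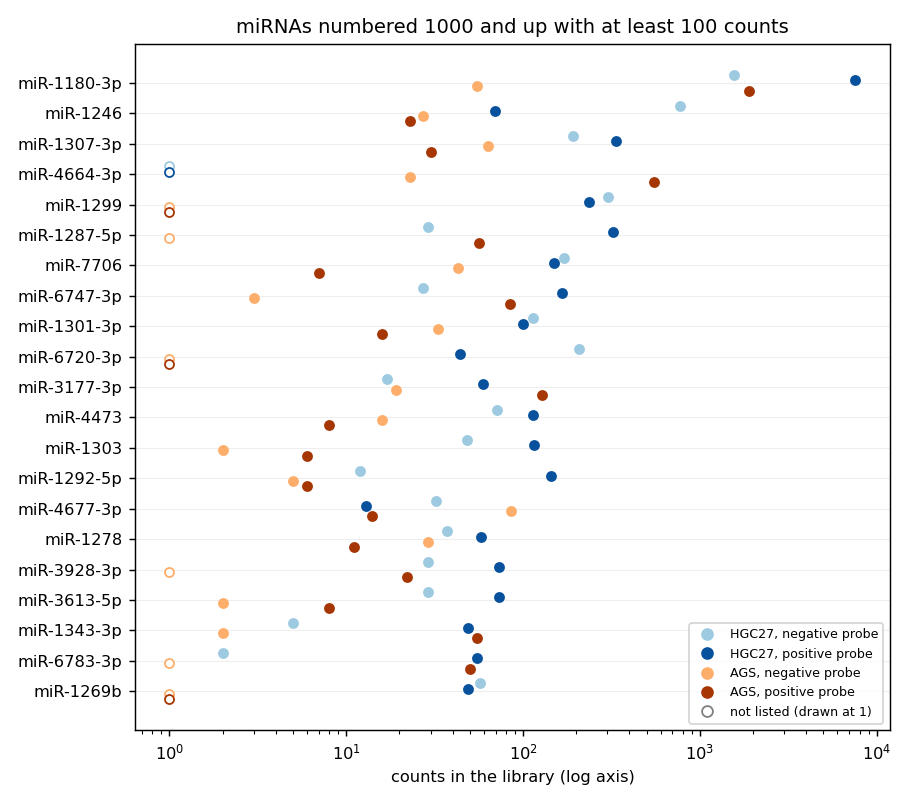
Counts on a log axis (x) of the 21 miRNAs numbered 1000 and up that had at least 100 counts over the 4 libraries (y), with 1 point per library and open circles drawn at 1 for a miRNA that was not listed. miR-1180-3p reached 7575 counts, whereas no other name exceeded 771, and miR-1299, miR-6720-3p and miR-1269b have open circles in both AGS libraries.

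The mature sequences were rich in G and C. The median GC content of the 203 was 56.5% (quartiles 45.5% and 63.6%, range 22.7% to 88.9%), against 45.5% in the other known miRNAs and 57.1% in the predicted entries. More than 60% GC was found in 72 names (35.5%), against 11.2% of the other known miRNAs, and less than 45% in 40 (19.7%), against 40.1%. The median rose little with abundance, being 57.1% in the 81 names with at least 10 summed counts and 59.1% in the 21 with at least 100. Among names with at least 10 summed counts, miR-1252-5p and miR-3613-5p were lowest at 22.7% and miR-1268a and miR-4787-3p highest at 83.3%.

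**Figure D2:**
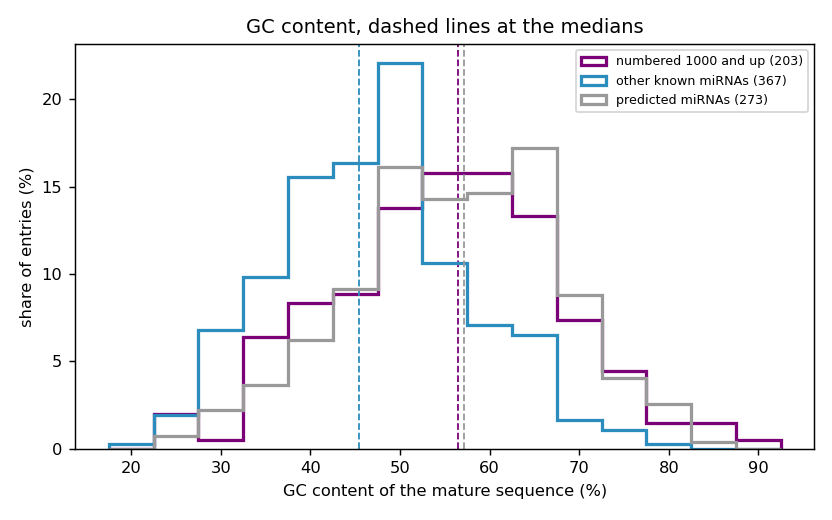
Share of entries (y, in %) by GC content of the mature sequence (x, in %) for the 203 miRNAs numbered 1000 and up, the 367 other known miRNAs and the 273 predicted miRNAs, with dashed lines at the medians of 56.5%, 45.5% and 57.1%. The curve of the miRNAs numbered 1000 and up runs close to that of the predicted entries and to the right of that of the other known miRNAs.

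Weighting each sequence by its counts gave the GC content of what each library held. It was 56.3% and 61.8% in HGC27 (negative and positive probe) and 54.9% and 63.3% in AGS, and miR-1180-3p itself, at 63.6% GC, weighs in these values. The other known miRNAs, weighted likewise, had 44.1%, 41.8%, 47.7% and 44.5%. The weighted GC content of the group was thus higher with the positive probe in both lines, while that of the other known miRNAs was lower.

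A first base of U, common in Argonaute-bound miRNAs, was present in 112 of the 203 (55.2%), against 43.1% of the other known miRNAs. A last dinucleotide of AG was present in 31 (15.3%), against 6.27%. AG is the last dinucleotide of most introns, and the annotation (GENCODE 29 on GRCh38) placed 17 of the 187 RefSeq-matched sequences (9.09%) with their last base on the last base of an annotated intron, against 1 of 326 other known miRNAs (0.307%), which was miR-877-3p, a known mirtron product. All 17 ended in AG and all were 3p arms, that is 17 of the 60 matched 3p names (28.3%). Of these, 14 were numbered 5000 and up, among 55 matched names of that band (25.5%).

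The 17 at intron ends were scarce. They summed to 133 counts over the 4 libraries, with 59 and 59 in HGC27 (negative and positive probe) and 2 and 13 in AGS, and single names ranged from 2 to 35 counts. Of the 17, 5 had at least 10 counts, namely miR-6505-3p, miR-1226-3p in DHX30, miR-6789-3p in PLEKHJ1, miR-6873-3p in WDR46 and miR-6857-3p in SMC1A. miR-1226-3p, the lone listed name among the first described mirtrons, had 18 and 2 counts in HGC27 and was not listed in AGS. Its fold between the probes in HGC27 was 0.117 (exact 95% interval 0.0132 to 0.488). Both hairpin ends lay within 2 bases of both intron ends for 3 names, miR-1226-3p, miR-6821-3p and miR-7108-3p.

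**Figure D3:**
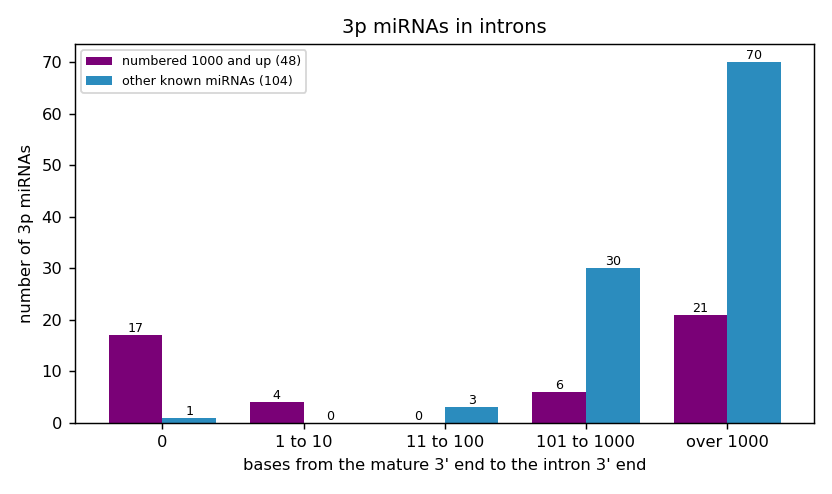
Number of 3p miRNAs in annotated introns (y) by the distance in bases from the 3′ end of the mature sequence to the 3′ end of the intron (x), for 48 miRNAs numbered 1000 and up and 104 other known miRNAs. At distance 0 stand 17 of the former and 1 of the latter, and the other known miRNAs lie mostly over 1000 bases away (70 of 104).

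A protein-coding gene on the same strand was annotated over 140 of the 187 matched sequences (74.9%), against 48.5% of the 326 other known miRNAs. Of the 187, 54.5% lay in introns only, 24.1% in or across exons and 21.4% in no annotated gene on their strand, against 64.7%, 18.7% and 16.6%. Within the group, 2 pairs of neighbouring names from different hairpins lay within 10000 bases on 1 strand (miR-4421 with miR-6500-3p, and miR-4745-5p with miR-3187-3p). Neighbours among the other known miRNAs were not looked for, so this does not count all genome clusters.

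Seeds were mostly private. The 203 sequences held 199 distinct seeds, 192 names shared theirs with no other known entry, and 3 shared one with other known miRNAs. These 3 were low in counts: miR-6838-5p, with the seed of miR-15 and miR-16, had 3, miR-3139, with that of miR-28-5p, had 6, and miR-1323, with that of miR-548o-3p, had 7. Of the 8 names that shared a seed among themselves, miR-1343-3p and miR-6783-3p (seed UCCUGGG, from different hairpins) were the pair with the most counts.

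Identity to other small RNAs concerned 5 names (2.46%), against 1 of the other known miRNAs (0.272%), in a search of 5222 annotated transcripts. miR-1246 had 771 and 69 counts in HGC27 (negative and positive probe) and 27 and 23 in AGS. miR-12136 had 58 counts in HGC27 and 16 in AGS in the negative-probe libraries and was absent from both positive-probe lists. miR-1973 and miR-4485-3p, both identical to a stretch of mitochondrial 16S rRNA (MT-RNR2), had 15 and 5 counts in the negative-probe library of HGC27, and miR-1973 had 2 in the positive-probe library. miR-1843, identical to a stretch of SCARNA3, had between 2 and 4 counts in each library. These reads cannot be told apart from fragments of the longer RNAs.

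For differences between libraries, the value was the ratio of the deposited normalized values after adding 1, with 2-fold as the limit. Because a count of 2 against a blank passes this limit in HGC27, each fold of a named miRNA is also given from its counts, divided by the total that the deposited values imply. Against a blank, the blank was set to 3 counts, and the result is called a floor fold. It leaves out the counting error of the listed count, so it is not a lower limit. For miR-1299 between the lines with the negative probe the floor fold was 249, and the exact interval started at 201. A blank may also hide a count of 1, since no count below 2 was listed. The sizes of folds and floor folds hold for the deposited scaling only.

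Comparing probes asks which miRNAs differed between the positive-probe and the negative-probe pull-down of a line. In HGC27, 178 of the 203 were listed with either probe, and 138 (77.5%) passed 2-fold, 82 higher and 56 lower with the positive probe, against 71.5% of all entries. However, 99 of the 138 had fewer than 10 counts in both libraries and 46 rested on 2 counts against a blank. With totals that edgeR rescales (TMM effective totals), 70 passed 2-fold, 45 higher and 25 lower. Where a library held 10 counts or more, a filter that favours names high in 1 library, 24 of 54 were higher (44.4%), against 28.1% of all entries, and 15 were lower (27.8%), against 33.3%. The predicted entries, which resemble the group in GC content and abundance, lay between, with 37.1% higher. The median log2 ratio was 0.5 over the 178 and 0.0 over all entries.

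In AGS, 84 were listed and 51 (60.7%) passed 2-fold, 43 higher and 8 lower, against 62.1% of all entries. Where a library held 10 counts or more, 17 of 27 were higher (63.0%), against 40.4% of all entries, and 4 were lower (14.8%), against 31.3%. The predicted entries were close to the group, with 64.5% higher and 9.68% lower. The median log2 ratio over the 84 was 1.0, against 0.0 over all entries. The split into higher and lower depended on the scaling, since with totals that leave out miR-372-3p 45 were higher and 28 lower. Among the 27 with at least 10 counts, 16 were then higher and 9 lower (33.3%), against 27.8% and 48.3% of all entries.

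The share of names higher with the positive probe was greater in the group than in the other known miRNAs within each class of GC content, but so it was in the predicted entries, and this was therefore not particular to the group. With at least 10 counts in HGC27, the higher share was 30.0% below 45% GC, 42.9% from 45% to 60% and 52.2% above 60%, against 16.8%, 24.8% and 26.7% of the other known miRNAs and 29.4%, 37.5% and 42.9% of the predicted entries. Of the names with 10 to 99 summed counts 41.2% were higher, against 24.7% of the other known miRNAs, and of those with 100 and up 50.0%, against 20.5%. In AGS, 9 of 12 names with 10 to 99 summed counts were higher, against 23.1% of the other known miRNAs, and 53.3% of those with 100 and up, against 34.2%. Across the names with at least 10 counts, Spearman's rho between GC content and the log2 probe ratio was 0.213 in HGC27 (54 names) and 0.389 in AGS (27 names), points that share their libraries.

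Within the GC classes of AGS the higher share was 42.9%, 57.1% and 76.9% from low to high GC, against 23.9%, 36.6% and 47.4% of the other known miRNAs and 42.9%, 81.8% and 61.5% of the predicted entries. The order of the 3p and 5p arms turned between the lines. With 10 counts or more 11 of 21 3p names, 7 of 16 5p names and 6 of 17 names with no arm suffix were higher with the positive probe in HGC27 (28.1% of all entries), and 8 of 12, 5 of 5 and 4 of 10 in AGS (40.4%). By number, 9 of 24 names below 2000, 7 of 10 in the 3000s, 1 of 6 in the 4000s and 6 of 13 at 5000 and up were higher in HGC27, and 7 of 11, 6 of 6, 1 of 4 and 3 of 6 in AGS. These shares describe small sets and were not tested.

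miR-1180-3p led the names that were higher with the positive probe. Its fold was 5.12 in HGC27 (exact 95% interval 4.85 to 5.41) and 58.2 in AGS (44.5 to 77.6). The size in AGS leaned on the scaling, the log2 probe ratio there being 5.63, and 5.12 with TMM effective totals (totals that edgeR rescales so that most entries differ little) and 4.35 with totals without miR-372-3p, against 2.35, 2.42 and 2.45 in HGC27. With 1 library each, the difference between the lines was not tested.

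miR-1287-5p had 29 and 324 counts in HGC27 (negative and positive probe), a fold of 11.8 (8.03 to 17.8). In AGS it was not listed with the negative probe and had 56 counts with the positive probe, a floor fold of 31.4. The positive-probe library was the higher in both lines.

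miR-1343-3p and miR-6783-3p, the pair with a common seed, were alike in counts. miR-6783-3p had 2 and 55 counts in HGC27, a fold of 28.9 (7.64 to 245), and 0 and 50 in AGS. Its floor fold in AGS was 28.0. miR-1343-3p had 5 and 49 counts in HGC27, a fold of 10.3 (4.13 to 33.2), and 2 and 55 in AGS, a fold of 46.2 (12.2 to 391). Both were near the lowest listed count with the negative probe and near 50 with the positive probe. The AGS sizes hold for the deposited scaling. There the log2 probe ratio of miR-1343-3p was 3.81, and 3.69 with totals without miR-372-3p, and that of miR-6783-3p 3.7 and 5.74.

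miR-6747-3p had 27 and 166 counts in HGC27, a fold of 6.47 (4.29 to 10.1), and 3 and 84 in AGS, a fold of 47.0 (15.6 to 233). miR-3177-3p had 17 and 59 counts in HGC27, a fold of 3.65 (2.1 to 6.68), and 19 and 128 in AGS, a fold of 11.3 (6.96 to 19.4). miR-3928-3p had 29 and 73 counts in HGC27, a fold of 2.65 (1.7 to 4.22), and 0 and 22 in AGS. Its floor fold in AGS was 12.3. The lowest of the set was miR-1255a, with 2 and 15 counts in HGC27 and 0 and 18 in AGS. The AGS folds hold for the deposited scaling. There the log2 probe ratio was 4.39 for miR-6747-3p, and 3.82 with totals without miR-372-3p, and 2.95 and 1.97 for miR-3177-3p. That of miR-3928-3p, blank with the negative probe, went the other way, from 2.58 to 4.59.

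A few names differed in counts between the lines. miR-4664-3p was not listed in HGC27 and had 23 and 548 counts in AGS (negative and positive probe), a fold of 40.0 (26.4 to 63.7). Its log2 probe ratio in AGS was 5.01, and 4.55 with TMM effective totals and 3.79 with totals without miR-372-3p. miR-1292-5p, whose hairpin lies in the snoRNA host gene NOP56, had 12 and 143 counts in HGC27, a fold of 12.5 (6.96 to 24.8), and 5 and 6 in AGS, a fold of 2.02 (0.513 to 8.35). miR-1304-5p was more alike in the 2 lines. It had 0 and 20 counts in HGC27, a floor fold of 7.01, and 0 and 9 in AGS, a floor fold of 5.04. Whether these differed between the lines was not tested.

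Of the names that match U2 RNA and a mitochondrial tRNA, both were lower with the positive probe in HGC27. There, miR-1246 had a fold of 0.0941 (0.0725 to 0.121), whereas in AGS its fold was 1.43 (0.784 to 2.59), an interval that includes 1. For miR-12136, absent from both positive-probe lists, the floor fold was 18.4 in HGC27 and 3.17 in AGS, lower with the positive probe. miR-6720-3p had 206 and 44 counts in HGC27, a fold of 0.225 (0.158 to 0.312).

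In HGC27, miR-3912-3p (18 counts) and miR-4638-5p (11 counts) were found in the negative-probe library alone. In AGS, miR-4802-3p had 35 counts in the negative-probe library and was absent from the other, lower by a floor fold of 6.94. miR-4677-3p had 32 and 13 counts in HGC27, a fold of 0.427 (0.206 to 0.837), and 86 and 14 in AGS, a fold of 0.274 (0.144 to 0.484). It was thus the foremost name of the negative-probe library of AGS and lower with the positive probe in both lines. miR-7706 had 171 and 150 counts in HGC27, a fold of 0.923 (0.736 to 1.16), and 43 and 7 in AGS, a fold of 0.274 (0.104 to 0.613).

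Of the 19 names that reached 10 counts in either library of both lines, 8 were higher past 2-fold with the positive probe in both lines (42.1%), against 21.2% of all entries under the same limit, and 2 were lower in both (miR-12136 and miR-4677-3p), against 22.8%. None passed 2-fold in opposite directions, and 4 of the 174 other entries did. The same 8 names were higher in both lines with TMM effective totals and with totals without miR-372-3p, where 20.2% and 18.1% of all entries were, although 1 name, miR-7974, passed in opposite directions in the latter. The 8 were miR-1180-3p, miR-1255a, miR-1287-5p, miR-1343-3p, miR-3177-3p, miR-3928-3p, miR-6747-3p and miR-6783-3p. Their GC content ran from 34.8% to 77.3%. The pull-down libraries of the 2 lines share no sample, but the limit of 10 counts favours names high in 1 library. In AGS, miR-1255a, miR-1287-5p, miR-1343-3p, miR-3928-3p, miR-6747-3p and miR-6783-3p reached it only through the positive-probe library, where they were high. miR-12136 reached it only through the negative-probe libraries. The count of 8 is therefore a description and not support.

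**Figure D4:**
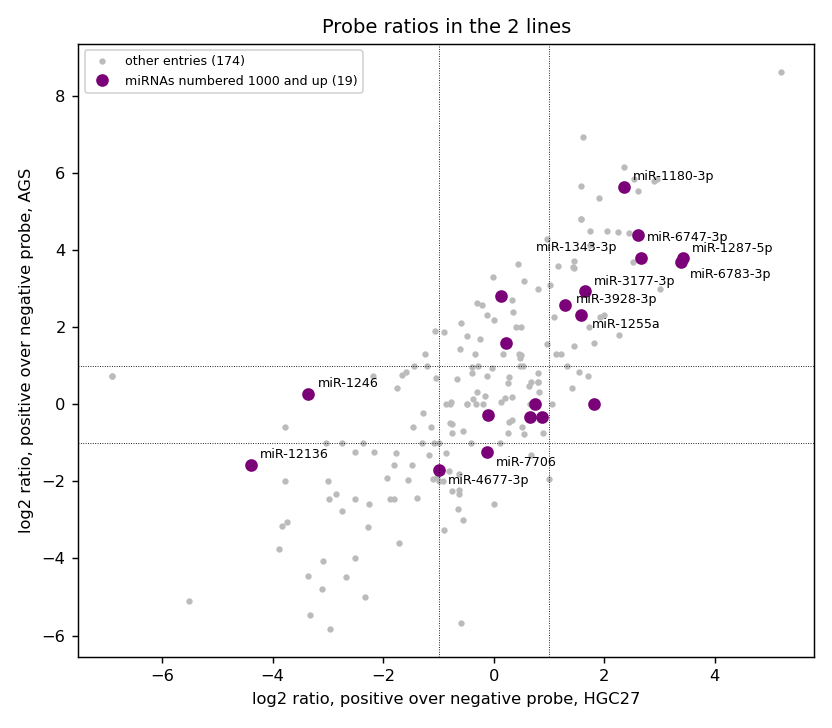
log2 ratio of the positive over the negative probe, from deposited values plus 1, in HGC27 (x) and AGS (y), for 19 miRNAs numbered 1000 and up (large points) and 174 other entries (small points) that reached 10 counts in either library of each line, dotted lines marking 2-fold. Of the large points, 8 sit past 2-fold at the upper right, 2 at the lower left, and none at the upper left or lower right.

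Marker miRNAs also differed between the probes. The epithelial markers had lower sums with the positive probe in both lines, as given above. The 4 fibroblast markers summed to 9766 and 9205 counts in HGC27 (negative and positive probe) and to 78 and 160 in AGS, but within the list miR-199a-3p went from 7692 to 58 counts in HGC27 while miR-143-3p was higher with the positive probe, at 9123. Their part in the results above was not tested.

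Seed matches to the FN1 3′-UTR were looked for in the annotated sequence (1115 bases, 34.9% GC, the longest annotated for the gene), as the reverse complement of bases 2 to 8 on the sense strand. At least 1 match was present for 16 of the 203 (7.88%), against 7.08% of the other known miRNAs. In the first 1115 bases of the 3′-UTRs of 9492 other genes, the same heptamers were found in 8.48% of cases on average. The FN1 3′-UTR thus held about as many matches to these seeds as other 3′-UTRs of that length.

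None of the 8 names that were higher in both lines had a match, whereas both names that were lower in both lines had 1. With at least 10 counts in HGC27, the 6 names with a match had a median log2 probe ratio of -1.0 and the 48 without had 0.81. In AGS, the 5 with a match had -0.32 (2 past 2-fold higher and 2 lower) and the 22 without had 2.16 (15 higher and 2 lower). Among the other known miRNAs the order was the opposite, with 0.47 (19 names) against -0.49 (223 names) in HGC27 and 0.74 (13 names) against 0.0 (159 names) in AGS. A match is a description of the letters and was not tested against these small sets. Names of the group below 45% GC also had low medians, at -0.208 in HGC27 and 0.263 in AGS. The part of GC content was not tested.

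With the 2 lines as the replicates of each probe, edgeR's quasi-likelihood test with line and probe as terms could be fitted over all 4 libraries, with 271 entries tested, 32 of them from this group. A name enters this fit only with enough counts, so the other 171 have no test. At a Benjamini-Hochberg adjusted p under 0.05 over all entries, 5 of the 32 were higher with the positive probe, against 4.06% of all entries tested, and 0 were lower, against 2.95%. At an unadjusted p under 0.05 there were 9. Of the 5, 3 (miR-6783-3p, miR-1255a and miR-1343-3p) passed the filter on low counts only through the positive-probe libraries, where they were high, so the count of 5 is a description and not support.

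The 5 were miR-6783-3p (log2 fold 5.74, SE 1.41, edgeR adjusted p = 0.0085), miR-1287-5p (4.65, SE 1.31, adjusted p = 0.0206), miR-1255a (4.03, SE 1.25, adjusted p = 0.0274), miR-1343-3p (3.93, SE 1.22, adjusted p = 0.0274) and miR-6747-3p (3.56, SE 1.2, adjusted p = 0.0479). miR-1287-5p and miR-6747-3p, which passed the filter with libraries of both probes, were higher with the positive probe in both lines. miR-1180-3p had a log2 fold of 3.69 (SE 1.35, edgeR adjusted p = 0.0575) and did not pass, but it was called with DESeq2 size factors, with known miRNAs only and with DESeq2's Wald test. The fit had 1 residual degree of freedom per entry and a common biological coefficient of variation of 0.612, and 0 were called with library totals in place of TMM scaling or without the filter on low counts, with 8 and 12 at an unadjusted p under 0.05 in those fits.

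Comparing lines asks which of these names differed between HGC27 and AGS cells with the same probe. With the negative probe, 135 were listed and 126 (93.3%) passed 2-fold, 122 higher and 4 lower in HGC27, against 92.0% of all entries. Where a library held 10 counts or more, 38 of 42 were higher (90.5%), against 85.8% of all entries, and 2 were lower (4.76%), against 8.79%. With the positive probe, 155 were listed and 131 (84.5%) passed 2-fold, 116 higher and 15 lower, against 88.2%. With at least 10 counts, 35 of 50 were higher (70.0%), against 74.7% of all entries, and 6 of the 50 were lower, against 13.0%. The median log2 ratio was 1.0 with both probes, against 1.58 and 1.01 over all entries.

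These directions leaned on the scaling, and the part of miR-372-3p, which fills the AGS libraries to a large degree, was not tested. Totals without miR-372-3p and at least 10 counts gave 25 higher in HGC27 (59.5%) and 5 lower with the negative probe, against 52.1% higher over all entries. They gave 32 (64.0%) and 8 with the positive probe, against 63.0%. The median log2 ratios of the group were 2.49 and 2.11. With TMM effective totals and at least 10 counts, 24 were higher (57.1%) and 6 lower in HGC27 with the negative probe, against 44.8% higher over all entries, and 24 (48.0%) and 14 with the positive probe, against 50.9%. The median log2 ratio of the group was then 1.88 and 0.94, in place of 2.78 and 2.32, and that of all entries 0.73 and 1.1, in place of 2.81 and 2.58. With the negative probe the group thus lay above the whole table under this scaling. The libraries hold material pulled down from bulk lysate. Between lines, fewer copies in a cell, a smaller share of the small RNA and less capture on the beads cannot be told apart.

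Some names were in effect found in 1 line. miR-1299 had 302 and 236 counts in HGC27 (negative and positive probe) and was not listed in AGS, with floor folds of 249 and 122. miR-6720-3p, with 206 and 44 counts in HGC27, had floor folds of 170 and 22.7. miR-1269b had 57 and 49 counts in HGC27 and none listed in AGS, with floor folds of 46.9 and 25.3. These sizes hold for the deposited scaling and were not computed with other totals. With TMM effective totals and with totals without miR-372-3p, miR-1299, miR-6720-3p and miR-1269b stayed past 2-fold with both probes.

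miR-4664-3p was the reverse, not listed in HGC27, and with 548 positive-probe counts in AGS was lower in HGC27 by a floor fold of 118. With the negative probe, at 23 counts in AGS, the floor fold was 3.10. These floor folds too hold for the deposited scaling only. miR-4802-3p (35 counts) was listed in AGS with the negative probe alone, and miR-6805-5p (14 counts) with the positive probe alone. miR-3148 was also listed in AGS only, with 2 and 11 counts.

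Among names present in both lines, miR-1180-3p was 69.9-fold higher in HGC27 with the negative probe (53.4 to 93.2) and 6.15-fold with the positive probe (5.84 to 6.47). miR-1246 was 70.5-fold (48.1 to 108) and 4.64-fold higher (2.86 to 7.79), and miR-1303 59.3-fold (15.5 to 504) and 29.9-fold (13.3 to 83.1). The line fold of miR-1180-3p and miR-1246 was thus smaller with the positive probe. With TMM effective totals the log2 line ratio of miR-1180-3p fell from 5.9 to 3.07 with the negative probe and from 2.62 to 0.37, inside 2-fold, with the positive probe, and that of miR-1246 was 3.06 and -0.04. The folds of miR-1303 hold for the deposited scaling, but it stayed past 2-fold with both probes under TMM effective totals.

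miR-1292-5p went the other way, with a line fold of 5.93 (1.94 to 21.5) and 36.9 (16.5 to 102). miR-3177-3p had a line fold of 2.21 (1.08 to 4.49) and 0.713 (0.514 to 0.978), and miR-4677-3p had 0.919 (0.592 to 1.39) and 1.44 (0.621 to 3.29). These values hold for the deposited scaling only. With TMM effective totals the log2 line ratios were -1.71 and -2.68 for miR-3177-3p (negative and positive probe) and -3.04 and -1.53 for miR-4677-3p, both lower in HGC27, and -0.38 for miR-1292-5p with the negative probe. With totals without miR-372-3p they were -1.44 and -1.53 for miR-3177-3p and -2.73 and -0.5 for miR-4677-3p. miR-4746-5p had 31 and 50 counts in HGC27 and 6 and 0 in AGS, and miR-7974 had 9 and 36, and 10 and 5. miR-3690, with 6 counts in HGC27 and 28 in AGS with the positive probe, and miR-3121-3p, with 4 and 18, were among the few that were lower in HGC27.

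**Figure D5:**
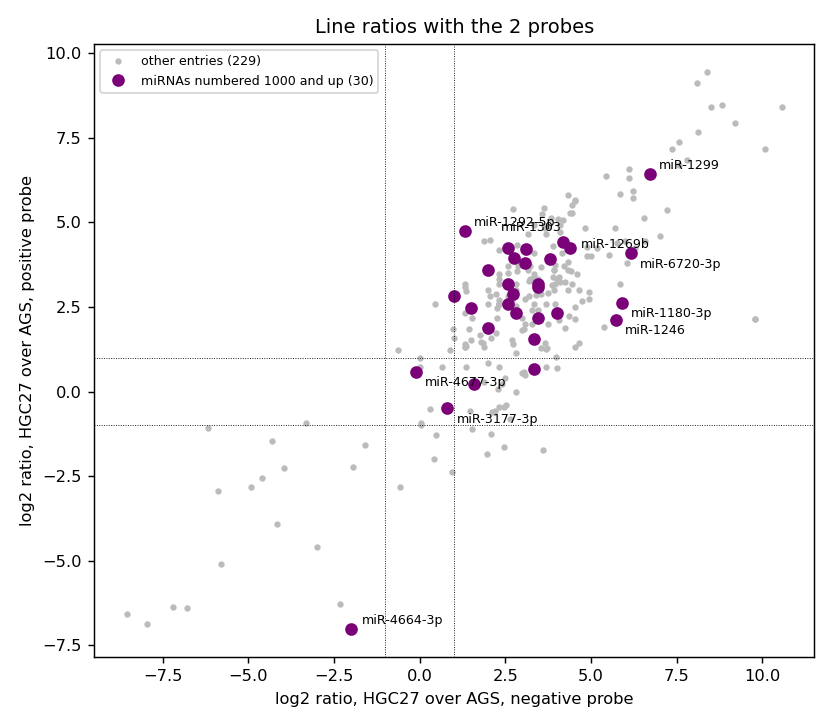
log2 ratio of HGC27 over AGS, from deposited values plus 1, with the negative probe (x) and the positive probe (y), for 30 miRNAs numbered 1000 and up (large points) and 229 other entries (small points) that reached 10 counts in either library with each probe, dotted lines marking 2-fold. Of the large points, 25 sit past 2-fold at the upper right and 1, miR-4664-3p, at the lower left.

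Of the 30 names with at least 10 counts in both comparisons, 25 (83.3%) were higher in HGC27 past 2-fold with both probes, against 76.4% of all entries, and 1 was lower with both, against 6.56%. With TMM effective totals 11 were (36.7%), against 35.1%, and with totals without miR-372-3p 15 were (50.0%), against 46.7%.

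The edgeR test with the probes as replicates of each line called 8 of the 32 tested higher in HGC27, against 22.1% of all entries tested, and 1 lower, against 7.75%. The 8 were miR-1269b, miR-1299, miR-3127-3p, miR-3187-3p, miR-4661-5p, miR-6505-3p, miR-6720-3p and miR-6866-5p, none of them listed in AGS, and the 1 lower was miR-4664-3p, not listed in HGC27. All 9 passed the filter on low counts only through the line where they were high, so they had to differ, and the count is a description and not support. Without the filter edgeR called 0, with 9 at an unadjusted p under 0.05, DESeq2's Wald test called miR-1299 and miR-6720-3p alone, and library totals in edgeR gave 21. miR-1180-3p had a log2 line fold of 1.48 (SE 1.27, edgeR adjusted p = 0.441).

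Of the remaining abundant names, miR-1303 and miR-3613-5p passed 2-fold between the probes in HGC27, and the other 4 were inside it in both lines under the deposited scaling. miR-1307-3p (chr10:103394301-103394322, minus strand, within ATP5MD) had 191 and 336 counts in HGC27 and 63 and 30 in AGS, folds of 1.85 (1.54 to 2.22) and 0.800 (0.5 to 1.25). miR-1301-3p had 114 and 100 counts in HGC27 and 33 and 16 in AGS, and miR-1278 had 37 and 58, and 29 and 11. miR-4473 had 71 and 114 counts in HGC27 and 16 and 8 in AGS, folds of 1.69 (1.25 to 2.3) and 0.840 (0.311 to 2.08). In AGS these 4 were past 2-fold lower with totals without miR-372-3p, with log2 probe ratios of -1.79, -1.74, -2.06 and -1.64 in that order. miR-1303 had 48 and 116 counts in HGC27, a fold of 2.54 (1.8 to 3.64). miR-3613-5p, at 22.7% GC, had 29 and 73, a fold of 2.65 (1.7 to 4.22).

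The count of miR-1307-3p alone understates its hairpin arm. A predicted entry of the table, shown beside it, starts and ends 1 base further 3′, which shifts the seed:
miR-1307-3p: aCUCGGCGuggcgucggucgug
predicted variant: cUCGGCGUggcgucggucgugg
The variant had 507 and 529 counts in HGC27 (negative and positive probe) and 133 and 80 in AGS, which is 72.6%, 61.2%, 67.9% and 72.7% of the pair. Summed, the log2 probe ratio was 0.38 in HGC27 and -0.05 in AGS. The variant was thus the more abundant form in every library, and under the deposited scaling the sum was close to even between the probes. With other totals the sum was not recomputed. miR-1307-3p alone then had log2 probe ratios in AGS of -1.02 (TMM effective totals) and -1.79 (totals without miR-372-3p).

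Both arms were listed for 10 hairpins. For miR-1307 the 3p arm had 620 summed counts and the 5p arm 14, and for miR-1292 the 5p arm had 166 and the 3p arm 8. miR-6505 was more balanced, with 57 counts for the 5p arm and 35 for the 3p arm. Its 5p arm had 43 and 12 counts in HGC27 (negative and positive probe) and its 3p arm 14 and 21, so the more abundant arm differed between the 2 libraries.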

How the data were processed

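Small RNA from the RNA pull-down was sequenced in 4 libraries, 1 for each combination of line and probe. The submitters' processing notes name cutadapt 1.9.3, Novoalign 3.02.12 and hg38, and the miRNA database release is not given in the sources used here. The authors deposited raw tag counts per miRNA, and a normalized score, tags per 1000000 reads, rounded to whole numbers (its divisor, recovered from the counts, exceeds the table's total in each library). Rows of 1 name on several hairpins were identical and were used once, giving 843 entries from 901 rows.

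The log2 ratio was taken on the deposited score with a pseudocount of 1, with 2-fold as the limit. Intervals of folds are exact conditional (Clopper-Pearson) 95% intervals from the counts, and those of shares are Wilson 95% intervals. Both cover counting error only, and PCR reads are not independent molecules. edgeR 4.0.16 (quasi-likelihood test, TMM, filterByExpr, terms line and probe) in R 4.3.3 was run on the counts of all entries with Benjamini-Hochberg adjustment, and DESeq2 1.42.0 as an alternative. The edgeR step was tested on simulated data, where it recovered 92.1% of 191 entries changed by 4 on the log2 scale between the probes. The simulated lines did not differ, no entry filled the AGS libraries alone, and only the more abundant entries were changed. The share recovered therefore checks that the step runs and does not carry over to low-count names in these libraries. Nothing in the labels says that the libraries came from separate cultures, so the p-values measure only the spread between these libraries. In the edgeR fit the prior degrees of freedom were infinite. Its p-values thus rest on a spread pooled over the entries tested and not on the spread of each miRNA.

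Sequences come from the deposited counts table and were matched to RefSeq (GRCh38.p14), and positions were read against GENCODE 29. Names given in the text are the 4 marker miRNAs of the group, those with at least 100 summed counts, the 5 highest and 5 lowest ratios of each comparison with at least 10 counts, those called by edgeR, and the GC extremes. The names, lists and tests were chosen with earlier results of these data known. The seed matches, intron ends and combined alternatives were chosen after seeing the data.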

Additional observations from a re-analysis of the deposited data

How the results depend on the processing

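Counts over all listed names include many that pass 2-fold on 2 counts against a blank. A pseudocount of 10 left 9 and 7 names past 2-fold between the probes (HGC27 and AGS) and 16 and 22 between the lines (negative and positive probe). A minimum of 10 counts left 39, 21, 40 and 41 in that order. TMM effective totals gave 70 between the probes in HGC27 and 68 between the lines with the negative probe. Both changes together, a combination chosen after seeing the data, gave 37, 23, 30 and 38, and the minimum with totals without miR-372-3p gave 37, 25, 30 and 40. The share of higher among past 2-fold went from 84.3% to 67.1% (TMM) and 61.6% (no miR-372-3p) between the probes in AGS, from 96.8% to 51 of 68 and 85.6% between the lines with the negative probe, and from 88.5% to 62.2% (TMM) with the positive probe. The median log2 ratio of all entries moved with the scaling, between -0.55 and 0.82 for the probes in AGS.

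Among the abundant named miRNAs, the direction between lines turned in 15 of 160 repeats and that between probes in 2 of 140, both for miR-1246 in AGS (0.26, and -0.19 with TMM and -0.96 without miR-372-3p). With TMM effective totals the log2 ratio of HGC27 over AGS was -1.31 for miR-1278, -0.38 for miR-1292-5p, -0.13 for miR-1307-3p and -1.71 for miR-3177-3p with the negative probe, and -0.04 for miR-1246, -1.73 for miR-1343-3p, -1.53 for miR-4677-3p, -0.63 for miR-6747-3p and -1.44 for miR-6783-3p with the positive probe. With totals without miR-372-3p it was -0.98 for miR-1278, -0.08 for miR-1292-5p and -1.44 for miR-3177-3p with the negative probe. Of all 300 repeats, 253 stayed on the same side of 2-fold, 25 fell inside it and 10 passed it in the same direction. Names higher in HGC27 past 2-fold with both probes went from 25 to 11 (TMM) and 15 (no miR-372-3p), repeats chosen after seeing the data.

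edgeR called 5 names between the probes, and 7, 6 and 4 with DESeq2 size factors, with known miRNAs only and with DESeq2's Wald test. With library totals and without a filter it called 0, with 8 and 12 names at an unadjusted p under 0.05. Between the lines it called 9, and 21 with library totals, 0 without a filter (9 at an unadjusted p under 0.05) and 2 with DESeq2's Wald test. The cause was not tested. The group's share of the AGS libraries moved to 0.09793% and 0.3436% in totals without miR-372-3p. GC medians moved within the quartiles. With 1 library a group there are no replicates to pair, and leaving out a library leaves no residual degree of freedom.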
